A study of Homo sapiens with 6 samples.

Results

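The genes described here carry glucose into the cell, split it to pyruvate and lactate, and carry lactate out. They were taken from the count table by gene symbol: 37 genes of the 60564 gene rows, chosen as the glucose transporters SLC2A1 and SLC2A3, the isozymes of each glycolytic step, the PFKFB and PDK regulators, the lactate dehydrogenases and the lactate carriers. All 37 symbols matched a row. Of these, 36 had at least 1 count, and 33 passed the filter on low counts and were tested.

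Poly(A) RNA was sequenced from A2780 cells, an established line from a human ovarian cancer. The GPT2si group has 3 libraries and the GPT2sinc group has 3, and both names are given as genotypes. The meaning of the endings si and sinc, the time, any dose and whether cultures were separate are not stated in the labels. GPT2 encodes the mitochondrial alanine aminotransferase, which moves the amino group of glutamate to pyruvate to make alanine.

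Glycolysis turns glucose into pyruvate in the cytosol and yields ATP and NADH. Lactate dehydrogenase reduces pyruvate to lactate, which restores NAD+, and monocarboxylate transporters move lactate across the plasma membrane. Most steps can be run by several isozymes from different genes, which differ in regulation and in the tissues that favour them. Many of these genes are known targets of the hypoxia-inducible factors, which bind the core motifs ACGTG and GCGTG. Cancer cells are known for high glycolytic flux with oxygen present.

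Library totals ran from 41931162 to 50882329 counts in GPT2si and from 43351984 to 45508530 in GPT2sinc. GPT2 had 93.8, 94.3 and 96.9 CPM (counts scaled to library size with TMM factors) in the GPT2si libraries, against 236, 229.9 and 219 CPM in the GPT2sinc libraries. Its log2 fold change was −1.26 (SE 0.08; edgeR adjusted p = 0.000393). The library GPT2si 2 stood apart from GPT2si 1 and 3, with a chi-square per degree of freedom over genes of 40.8 and 49.95 against them, where GPT2si 1 and 3 gave 8.04 between themselves. The defining markers PAX8, WT1, MUC16 and ESR1 of ovarian and Müllerian tissue summed to at most 0.351 CPM in GPT2si libraries and 0.258 CPM in GPT2sinc libraries. Of 6 epithelial markers, the keratin genes KRT8 and KRT18 were at 38.4 and 31.2 CPM in GPT2si and 31.7 and 24.7 CPM in GPT2sinc. EPCAM was at 1.61 CPM in GPT2si and 1.94 CPM in GPT2sinc. CDH1 and KRT19 were at 0.251 and 0.482 CPM in GPT2si and 0.19 and 0.346 CPM in GPT2sinc, and KRT7 had no count. Of the immune markers, CD3E had no count in any library, and CD68 was at 5.75 CPM in GPT2si and 4.62 CPM in GPT2sinc. Of 6 fibroblast genes none passed. COL3A1 was the highest of them, at 2587 CPM in GPT2si and 2561 CPM in GPT2sinc, and LUM the lowest, at 0.199 and 0.264 CPM. Any part of these markers in the results below was not tested.

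All 8 members past the test described below fell, and the promoter windows of 4 of them are shown, picked by their number of motif matches. ALDOC, PGK1 and HK2 hold the most motif matches among the members that passed, and SLC16A3 holds none. Each window runs from 250 bases before to 50 after the gene start in RefSeq on GRCh38.p14, and capitals mark ACGTG or GCGTG on either strand (CACGT and CACGC where they lie on the other strand).
ALDOC (chr17:28576846-28577145, minus strand): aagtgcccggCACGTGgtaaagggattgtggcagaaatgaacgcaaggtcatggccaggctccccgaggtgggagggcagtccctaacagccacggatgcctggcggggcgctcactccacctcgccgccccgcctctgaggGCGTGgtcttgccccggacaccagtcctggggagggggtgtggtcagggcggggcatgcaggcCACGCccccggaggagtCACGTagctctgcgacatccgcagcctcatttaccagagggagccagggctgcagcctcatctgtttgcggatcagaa
PGK1 (chrX:78103998-78104297, plus strand): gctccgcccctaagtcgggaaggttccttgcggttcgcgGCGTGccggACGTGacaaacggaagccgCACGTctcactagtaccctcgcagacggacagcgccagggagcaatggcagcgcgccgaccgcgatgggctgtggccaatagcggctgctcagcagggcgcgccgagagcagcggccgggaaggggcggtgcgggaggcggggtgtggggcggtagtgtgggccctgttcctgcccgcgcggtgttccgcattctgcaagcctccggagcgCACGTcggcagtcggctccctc
HK2 (chr2:74833877-74834176, plus strand): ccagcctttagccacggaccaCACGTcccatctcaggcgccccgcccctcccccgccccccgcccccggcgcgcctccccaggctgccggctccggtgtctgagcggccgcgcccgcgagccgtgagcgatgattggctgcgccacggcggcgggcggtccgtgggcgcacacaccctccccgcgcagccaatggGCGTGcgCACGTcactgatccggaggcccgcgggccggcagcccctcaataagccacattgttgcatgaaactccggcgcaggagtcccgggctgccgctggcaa
SLC16A3 (chr17:82228185-82228484, plus strand): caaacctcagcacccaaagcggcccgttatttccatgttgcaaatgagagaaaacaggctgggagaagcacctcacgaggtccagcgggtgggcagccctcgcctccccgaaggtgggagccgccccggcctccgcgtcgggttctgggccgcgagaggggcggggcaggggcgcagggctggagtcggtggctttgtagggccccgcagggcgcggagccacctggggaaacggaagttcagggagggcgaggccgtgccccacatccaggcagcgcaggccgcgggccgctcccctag

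A window was found for 34 of the 37 members. The ALDOC window held 5 matches, the PGK1 window 4 and the HK2 window 3. A CACGTG, as in ALDOC, is counted on both strands. SLC2A1, PFKL and PFKFB4, which also passed the test, each had 1 match, and PFKP had 0. At least 1 match was present in 6 of 8 windows of members that passed and in 14 of 22 windows of members that were tested and did not pass. Of all 35116 windows of the same length in the table, 48.4% held a match. LDHA, which did not pass the test, held 6. A match is a run of letters and not a measured binding site.

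The glycolysis members were mostly lower in GPT2si. Of 33 tested members, 8 fell and 0 rose by the edgeR quasi-likelihood test (Benjamini-Hochberg adjusted p under 0.05 over 17006 genes), where 0.841% of all tested genes fell and 0.576% rose (1.42% in either direction). The 8 were the glucose transporter gene SLC2A1, the hexokinase gene HK2, the phosphofructokinase genes PFKL and PFKP, the regulator gene PFKFB4, the aldolase gene ALDOC, PGK1 and the lactate exporter gene SLC16A3. The median log2 fold change was −0.27 over the 33 members and −0.01 over all tested genes, and 26 members were below 0, against 52.0% of all tested genes. At an unadjusted p under 0.05, 21 members were lower and 4 higher, where 9.27% of all tested genes were lower and 10.3% higher. In 20 members every GPT2si library lay below every GPT2sinc library (13.2% of all tested genes), and in 4 every GPT2si library lay above (14.9%). RNA from bulk cells cannot tell fewer cells of a type from less RNA per cell.

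**Figure D1:**
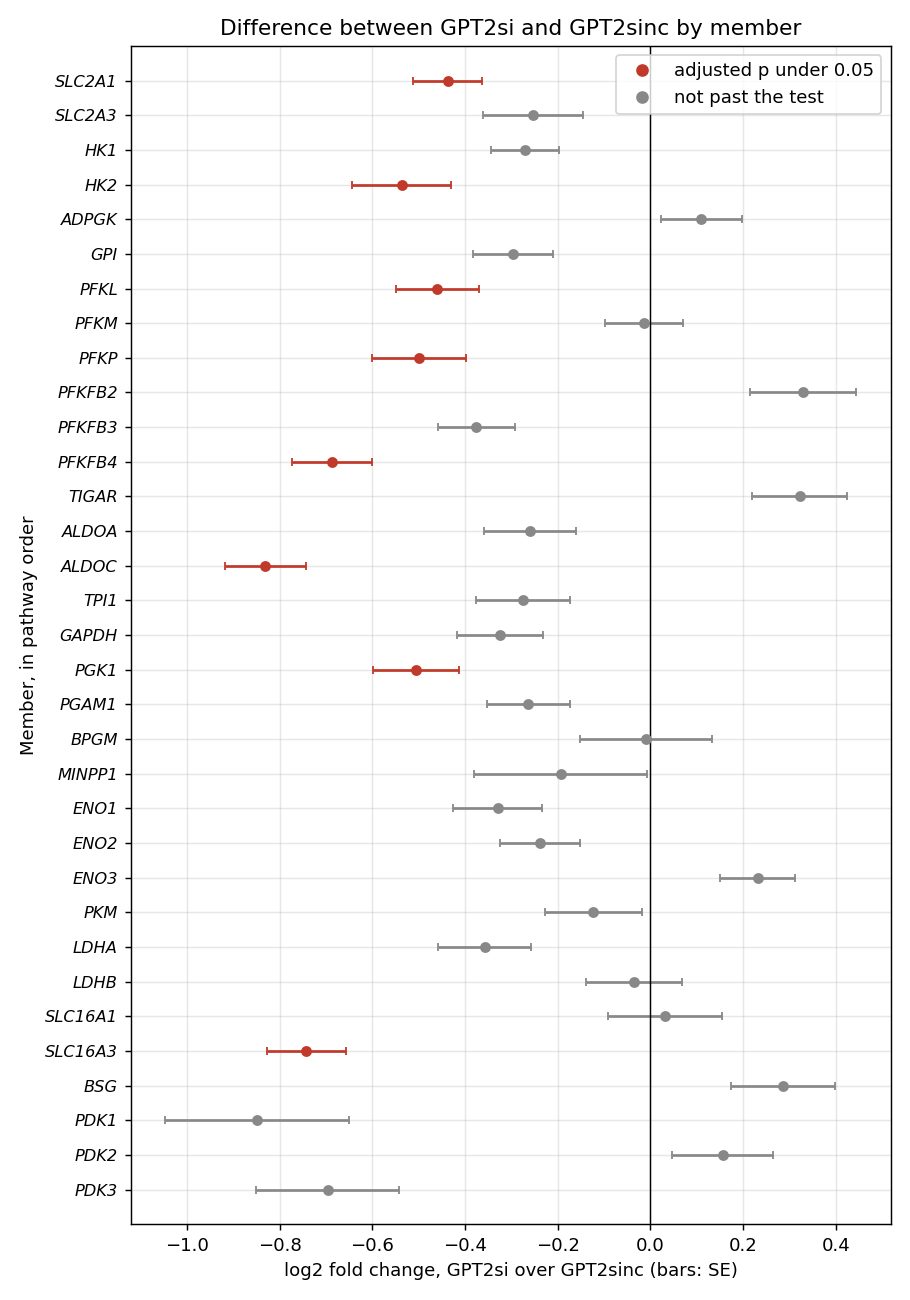
Log2 fold change of GPT2si over GPT2sinc (x axis) for the 33 tested members, listed from glucose uptake at the top to the PDK genes at the bottom, with bars for the SE. The 8 members past the test (red) all lie left of 0, from −0.83 for ALDOC to −0.44 for SLC2A1, while PFKFB2, TIGAR, ENO3 and BSG lie between 0.23 and 0.33 and did not pass.

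The calls depended on which library was left out, while the direction of those 8 did not change in any fit with 1 library left out. No member passed edgeR without GPT2si 1, GPT2sinc 1, GPT2sinc 2 or GPT2sinc 3. At an unadjusted p under 0.05, 19 members were lower without GPT2si 1 (7.51% of all tested genes) and 19 without GPT2sinc 1 (5.85%). The same threshold gave 18 lower members without GPT2sinc 2 (6.56% of all tested genes) and 18 without GPT2sinc 3 (1395 of all 17440 tested genes). Without GPT2si 3, ALDOC, PFKFB4 and SLC16A3 fell and 0 members rose, where 0.333% of all tested genes fell and 0.293% rose. Without GPT2si 2, the library that stood apart, 16 members fell, all 8 among them, and 1 rose, where 2.62% of all tested genes fell and 2.15% rose. The DESeq2 Wald test also gave 16 lower and 1 higher, where 3.42% and 4.47% of all genes it tested were lower and higher, and limma-voom gave 6 lower and 0 higher, where 0.635% of all tested genes were lower and 0.388% higher. All members together took 2.90%, 2.88% and 2.79% of all counts in the GPT2si libraries, against 3.59%, 3.60% and 3.81% in the GPT2sinc libraries. This sum weighs abundant members such as GAPDH most. No p-value is given for it, since the members were chosen with earlier results of these data known.

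**Figure D2:**
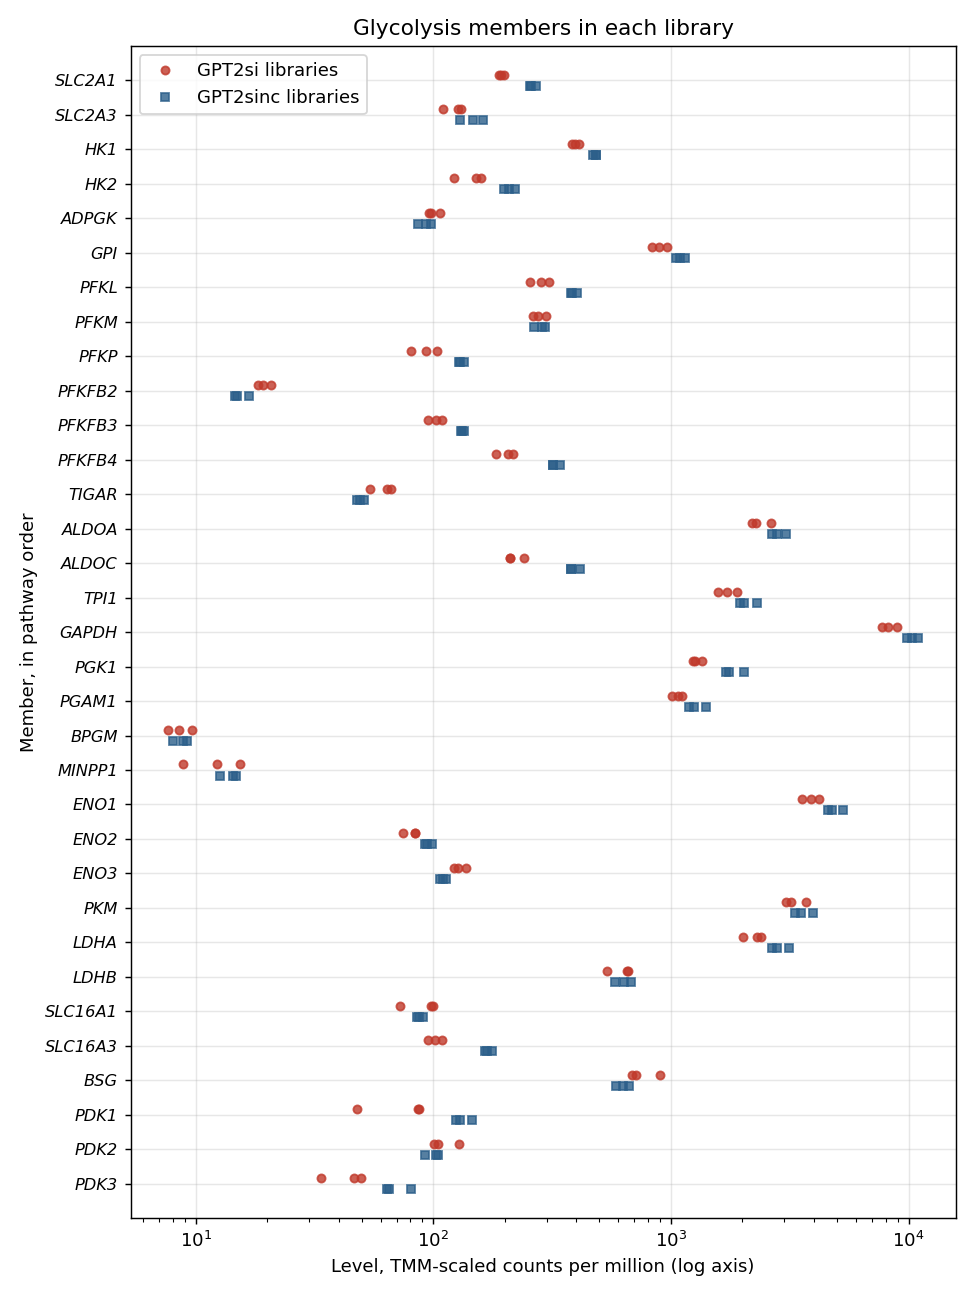
Level of each tested member in each library, in TMM-scaled CPM on a log axis, with GPT2si libraries as red circles above GPT2sinc libraries as blue squares. Levels span from under 10 CPM for BPGM to 10956 CPM for GAPDH, and the groups are apart in members such as ALDOC and SLC16A3 but not in PFKM or LDHB.

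Of the glucose transporter genes, SLC2A1 fell and SLC2A3 did not pass. SLC2A1 encodes GLUT1, the transporter for basal glucose uptake in most cells, and had 199, 188 and 193 CPM in GPT2si against 269.8, 256 and 258 CPM in GPT2sinc. The groups did not overlap, and the log2 fold change was −0.44 (SE 0.07; edgeR adjusted p = 0.0293). SLC2A3, the gene of the high-affinity transporter GLUT3, had 131, 110.0 and 127 CPM in GPT2si against 163, 146 and 129 CPM in GPT2sinc. Its groups overlapped at GPT2sinc 3, and it did not pass (−0.25, SE 0.11). Per kilobase of exon, SLC2A1 stood at 67.3 ± 1.48% of the summed level of both genes in GPT2si and at 70.1 ± 2.01% in GPT2sinc (SD, n = 3 each). The difference of −2.76 percentage points (SE 1.44; two-sided exact permutation p = 0.2) was −1.65 without GPT2sinc 3.

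Among the enzymes that phosphorylate glucose, HK2 fell. HK2, the inducible hexokinase of muscle and many tumours that binds mitochondria, had 158, 122 and 152 CPM in GPT2si against 222, 207 and 198 CPM in GPT2sinc. Every GPT2si library lay below the lowest GPT2sinc library, with GPT2si 2 the lowest (log2 fold change −0.54, SE 0.11; edgeR adjusted p = 0.0484). HK1, the housekeeping hexokinase, had 411, 395 and 385 CPM in GPT2si against 482, 485 and 469 CPM in GPT2sinc. That difference of −0.27 (SE 0.07) also left no overlap but did not pass (edgeR adjusted p = 0.103). ADPGK, which phosphorylates glucose with ADP in place of ATP, had 99.9 ± 5.52 CPM in GPT2si and 92.5 ± 5.96 CPM in GPT2sinc (SD, n = 3 each; log2 fold change 0.11, SE 0.09). HKDC1, a hexokinase-like gene, had 10, 0 and 11 counts in GPT2si and 0 counts in each GPT2sinc library, and it was below the filter. HK2 made up 27.3 ± 2.6% of hexokinase per kilobase in GPT2si and 31.2 ± 1.01% in GPT2sinc, a difference of −3.88 percentage points (SE 1.61; −2.38 without GPT2si 2).

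GPI, the isomerase that makes fructose 6-phosphate and has a single gene, had 888, 959.9 and 829.7 CPM in GPT2si against 1049.8, 1093 and 1146 CPM in GPT2sinc. The groups were apart by −0.30 on the log2 scale (SE 0.09), short of the test (edgeR adjusted p = 0.115).

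Of the phosphofructokinase subunits, which form the main control point of the pathway, PFKL and PFKP fell and PFKM did not pass. PFKL, the liver-type subunit, had 282, 308 and 256 CPM in GPT2si against 382, 378 and 403 CPM in GPT2sinc (−0.46, SE 0.09; edgeR adjusted p = 0.0468). PFKP, the platelet-type subunit, had 104, 80.7 and 92.9 CPM in GPT2si against 134, 129 and 128 CPM in GPT2sinc (−0.50, SE 0.10; edgeR adjusted p = 0.0493). In both genes all GPT2si libraries were below all GPT2sinc libraries. PFKM, the muscle-type subunit, had 276, 298 and 263 CPM in GPT2si against 265, 286 and 294 CPM in GPT2sinc, so that its groups overlapped (−0.01, SE 0.08). PFKM therefore stood at 42.9 ± 1.38% of the 3 subunits per kilobase in GPT2si and at 35.3 ± 1.23% in GPT2sinc, 7.6 percentage points higher (SE 1.07; exact permutation p = 0.1). Its log2 ratio to the other subunits differed by 0.46 (SE 0.07). PFKL made up 35.5% against 39.9%. PFKP made up 21.6% against 24.8%, and its difference of −3.25 percentage points was −1.55 without GPT2si 2.

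The PFKFB enzymes make and break down an allosteric activator of phosphofructokinase, and PFKFB4 was the 1 gene of this group that fell. PFKFB4 had 216, 184 and 206 CPM in GPT2si against 341, 318 and 319 CPM in GPT2sinc, with no overlap (−0.69, SE 0.09; edgeR adjusted p = 0.0119). PFKFB3, the form with the highest ratio of kinase to phosphatase activity, had 109, 95.0 and 103 CPM in GPT2si against 135, 131 and 132 CPM in GPT2sinc, also with no overlap (−0.38, SE 0.08), and did not pass (edgeR adjusted p = 0.0620). PFKFB2, the heart-type form, was the low member of the family, with 20.6, 18.3 and 19.3 CPM in GPT2si against 14.9, 16.8 and 14.6 CPM in GPT2sinc. All its GPT2si libraries lay above the GPT2sinc libraries (0.33, SE 0.11), without passing (edgeR adjusted p = 0.163). YOD1 overlaps PFKFB2 on the opposite strand and had 7.23 CPM in GPT2si and 6.67 CPM in GPT2sinc, and whether the counting used strand is not known from the sources at hand. TIGAR, a phosphatase gene and p53 target that lowers the same activator, had 63.6, 54.2 and 66.5 CPM in GPT2si against 47.6, 50.9 and 48.9 CPM in GPT2sinc. Its groups were apart (0.32, SE 0.10; edgeR adjusted p = 0.136), and it was the 1 member that rose without GPT2si 2 (edgeR adjusted p = 0.0188) and with DESeq2 (adjusted p = 0.0494). Within the family per kilobase, PFKFB4 made up 64.0 ± 0.443% in GPT2si and 69.7 ± 0.624% in GPT2sinc, PFKFB3 32.3 ± 0.354% and 28.3 ± 0.506%, and PFKFB2 3.68 ± 0.09% and 1.98 ± 0.187% (SD, n = 3 each; exact permutation p = 0.1 for each). FBP1, the gluconeogenic phosphatase that opposes phosphofructokinase, had 0 counts in all 6 libraries, which allows up to 0.0715 CPM in the least deep library.

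**Figure D3:**
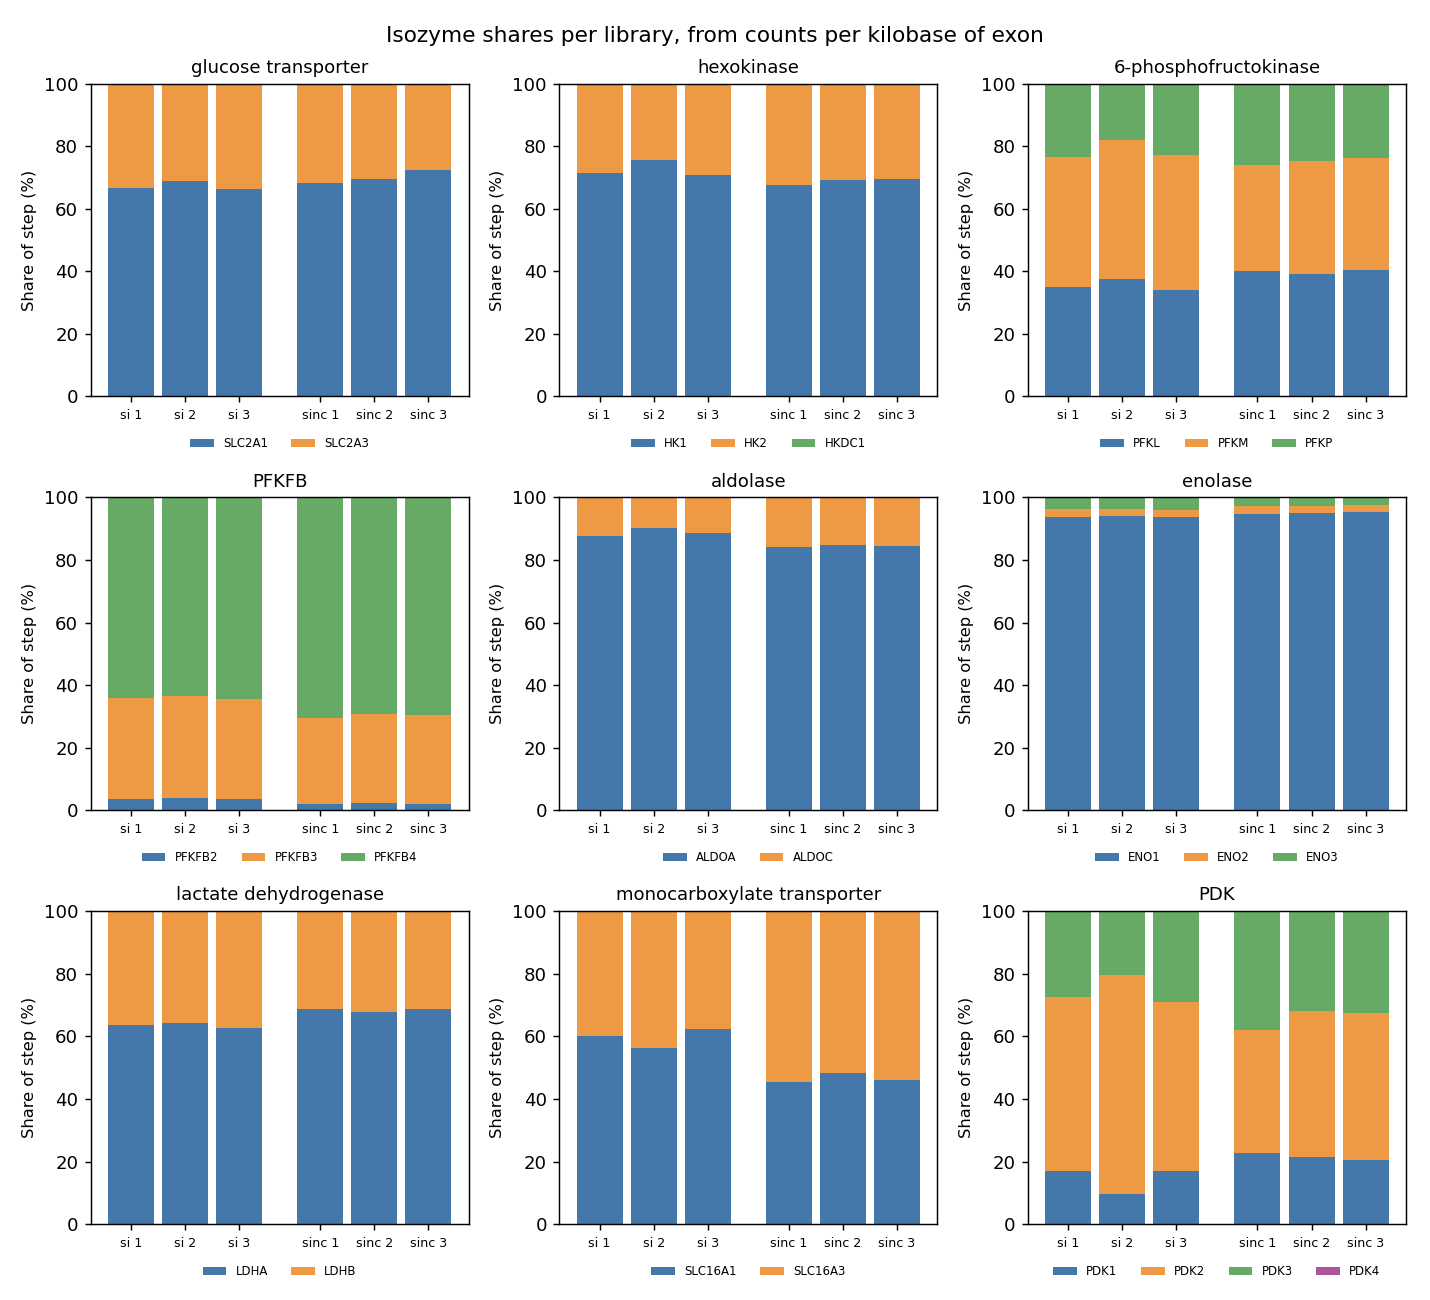
Share of each isozyme in its step (percent, from counts per kilobase of exon) in each library, with GPT2si libraries (si) left of GPT2sinc libraries (sinc). The share of SLC16A1 was 56.3% to 62.5% in GPT2si and 45.5% to 48.3% in GPT2sinc, and the ALDOC share was 9.61% to 12.3% in GPT2si and 15.3% to 16.0% in GPT2sinc.

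ALDOC fell by more than any other member that passed. ALDOC, the brain-type aldolase, had 239.7, 210.1 and 211 CPM in GPT2si against 379.6, 379 and 416 CPM in GPT2sinc (log2 fold change −0.83, SE 0.09; edgeR adjusted p = 0.0111), and 3 of all 17006 genes had a smaller p. The highest GPT2si library lay far below the lowest GPT2sinc library. ALDOA, the ubiquitous aldolase, had 2283, 2642 and 2184 CPM in GPT2si against 2668, 2799.8 and 3046 CPM in GPT2sinc. GPT2si 2 lay just below GPT2sinc 1, and ALDOA did not pass (−0.26, SE 0.10). ALDOC stood at 11.1 ± 1.38% of aldolase per kilobase in GPT2si and at 15.6 ± 0.348% in GPT2sinc, and the log2 ratio of ALDOC to ALDOA differed by −0.57 (SE 0.12; exact permutation p = 0.1 for the share).

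In the second, energy-yielding part of the pathway, PGK1 fell and the other abundant enzymes were lower without passing. PGK1, which makes the first ATP and lies on chromosome X from 77910739 to 78129296 (GRCh38, GENCODE 29), had 1353, 1262 and 1244 CPM in GPT2si against 1696, 1759.7 and 2025 CPM in GPT2sinc (−0.51, SE 0.09; edgeR adjusted p = 0.0394). Its call was lost with offsets for GC content and transcript length (−0.40, edgeR adjusted p = 0.0654). The PGK1 promoter window shown above lies inside this annotated span and not at its start. The ALDOC window likewise lies inside the annotated span of ALDOC, from 28573115 to 28577264 on chromosome 17. GAPDH, the NADH-making dehydrogenase and the most abundant member, had 8185, 8943 and 7718 CPM in GPT2si against 9851, 10302 and 10956 CPM in GPT2sinc. These groups were apart by −0.32 (SE 0.09) but did not pass (edgeR adjusted p = 0.112). TPI1, which interconverts the triose phosphates, stood at −0.27 (SE 0.10) with 1733 ± 165 CPM in GPT2si and 2096 ± 183 CPM in GPT2sinc. PGAM1, the main phosphoglycerate mutase, stood at −0.26 (SE 0.09) with 1065 ± 53.1 CPM in GPT2si and 1278 ± 108 CPM in GPT2sinc (SD, n = 3 each). In TPI1 and PGAM1 each GPT2si library lay below each GPT2sinc library. Counts at pseudogenes named after GAPDH and TPI1 came to 0.041% and 1.37% of the counts of these genes. BPGM, which makes 2,3-bisphosphoglycerate, and MINPP1, a phosphatase that can remove it, were at 8.60 and 12.15 CPM in GPT2si and 8.66 and 13.9 CPM in GPT2sinc, with overlapping groups.

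Of the enolases, ENO1 and ENO2 were lower and ENO3 higher, and none passed. ENO1, the ubiquitous form, had 3867, 4189 and 3571 CPM in GPT2si against 4568, 4766 and 5274 CPM in GPT2sinc (−0.33, SE 0.10; edgeR adjusted p = 0.116). ENO2, the neuronal form, was at 80.6 ± 5.54 CPM in GPT2si and 95.1 ± 3.12 CPM in GPT2sinc (−0.24, SE 0.09). ENO3, the muscle form, had 127, 137 and 122 CPM in GPT2si against 113, 107 and 109 CPM in GPT2sinc (0.23, SE 0.08). The 3 genes each kept their groups apart. ENO3 overlaps PFN1, which lies on the opposite strand with 1117 CPM in GPT2si and 949.9 CPM in GPT2sinc and a log2 fold change of 0.23, so that the counts of ENO3 are uncertain. PKM, the pyruvate kinase of most proliferating cells, had 3200.2, 3708 and 3036 CPM in GPT2si against 3338, 3541 and 3953 CPM in GPT2sinc, which overlapped (−0.12, SE 0.10). PKLR, the liver and red cell form, had 2 counts in GPT2sinc 2 and none in the other libraries.

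Of the lactate dehydrogenase genes neither passed, and of the lactate carriers SLC16A3 fell. LDHA, the subunit that favours pyruvate reduction, had 2395, 2012 and 2293 CPM in GPT2si against 2666, 2781 and 3137 CPM in GPT2sinc (−0.36, SE 0.10; edgeR adjusted p = 0.108). LDHB, the heart-type subunit, had 655, 536 and 659 CPM in GPT2si against 583, 633 and 681 CPM in GPT2sinc (−0.04, SE 0.10). The LDHA groups were apart and the LDHB groups overlapped. LDHA made up 63.5 ± 0.899% of the pair per kilobase in GPT2si and 68.5 ± 0.555% in GPT2sinc (SD, n = 3 each), a difference of −4.95 percentage points (SE 0.61; exact permutation p = 0.1). The log2 ratio of LDHA to LDHB differed by −0.32 (SE 0.04), a ratio within each library that needs no scaling between libraries.

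SLC16A3 encodes MCT4, the lactate exporter of highly glycolytic cells, and had 109, 94.6 and 101 CPM in GPT2si against 177, 164 and 169 CPM in GPT2sinc (−0.74, SE 0.09; edgeR adjusted p = 0.0115). No GPT2si library reached the lowest GPT2sinc library. CSNK1D overlaps SLC16A3 on the opposite strand and had 184 CPM in GPT2si and 160.2 CPM in GPT2sinc, a difference in the other direction. SLC16A1 encodes MCT1, which moves lactate in either direction, and had 97.3, 72.1 and 99.9 CPM in GPT2si against 87.3, 90.6 and 85.7 CPM in GPT2sinc. It overlapped between the groups, with GPT2si 2 the lowest (0.03, SE 0.12). SLC16A1 therefore made up 59.7 ± 3.12% of both carriers per kilobase of exon in GPT2si and 46.7 ± 1.44% in GPT2sinc, 13.0 percentage points higher (SE 1.98; exact permutation p = 0.1). Which carrier was the higher within a group depended on the length used, since per kilobase of the longest transcript SLC16A1 made up 49.1% in GPT2si and 36.3% in GPT2sinc. BSG, the chaperone that brings both carriers to the cell surface, had 716, 899 and 684 CPM in GPT2si against 589, 629 and 667 CPM in GPT2sinc. The groups were apart, with GPT2si 2 well above the rest (0.29, SE 0.11; edgeR adjusted p = 0.206), and the log2 fold change was 0.14 without GPT2si 2.

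**Figure D4:**
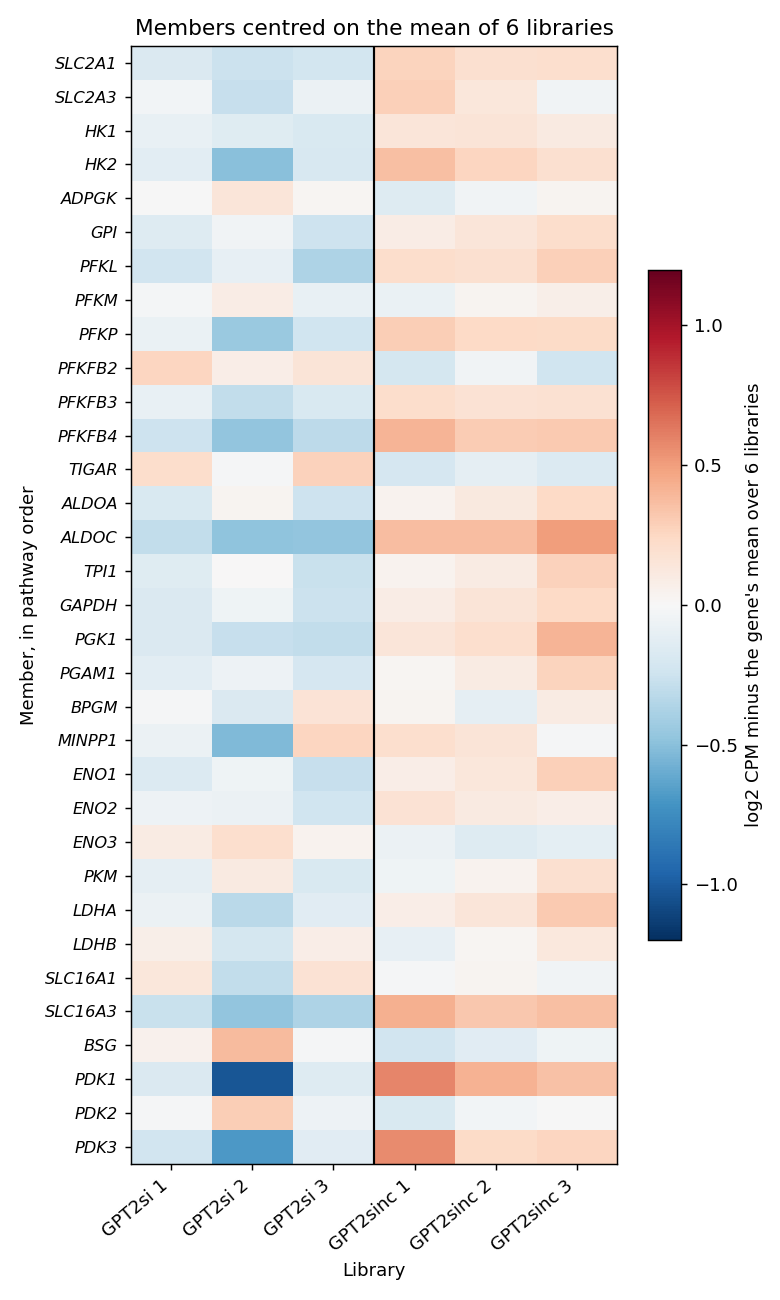
Log2 CPM of each tested member minus its mean over the 6 libraries, with GPT2si libraries left of the black line and GPT2sinc libraries right of it. Most members are below their mean (blue) in GPT2si and above it (red) in GPT2sinc, and GPT2si 2 differs from GPT2si 1 and 3 in both directions, as in PDK1 and BSG.

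The pyruvate dehydrogenase kinases, which keep pyruvate out of the mitochondrial dehydrogenase complex, did not pass edgeR with all 6 libraries, while PDK1 and PDK3 passed DESeq2 (adjusted p = 0.000458 and 0.00063), the edgeR fit with a replicate block (adjusted p = 0.00239 and 0.00605) and the edgeR fit with offsets for GC content and length (adjusted p = 0.00683 each). PDK1 had 86.0, 47.8 and 87.3 CPM in GPT2si against 145, 129 and 124 CPM in GPT2sinc (−0.85, SE 0.20; edgeR adjusted p = 0.0711). PDK3 had 46.2, 33.6 and 49.5 CPM in GPT2si against 80.8, 63.9 and 64.9 CPM in GPT2sinc (−0.70, SE 0.15; edgeR adjusted p = 0.0620). In both genes the groups were apart and GPT2si 2 was the lowest library. Without GPT2si 2 both fell, PDK1 with −0.63 (SE 0.08; edgeR adjusted p = 0.00872) and PDK3 with −0.56 (SE 0.11; edgeR adjusted p = 0.0325). PDK1 and PDK3 each passed in those 4 of 14 alternatives only. With 1 library left out, the edgeR adjusted p reached 0.272 for PDK1 and 0.254 for PDK3. PDK2 had 104, 129 and 101 CPM in GPT2si against 92.4, 103 and 104 CPM in GPT2sinc, overlapping between the groups (0.16, SE 0.11, and 0.03 without GPT2si 2). SAMD14 overlaps PDK2 on the opposite strand and had 14.16 CPM in GPT2si and 20.21 CPM in GPT2sinc, a difference in the other direction. PDK2 made up 59.9 ± 8.96% of the kinases per kilobase in GPT2si and 44.2 ± 4.33% in GPT2sinc, 15.6 percentage points higher (SE 5.74; 10.5 without GPT2si 2). The PDK1 share was 14.6 ± 4.29% in GPT2si and 21.6 ± 1.09% in GPT2sinc, and its difference of −7.07 percentage points was −4.60 without GPT2si 2. PDK4, the form induced by fasting in many tissues, had 2 counts in GPT2si 1 and none elsewhere.

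Level per exon length set the members in an order that the groups shared at the top. In GPT2si the means were 2778 CPM per kilobase for GAPDH, 735 for ENO1, 642 for TPI1, 605 for ALDOA and 415 for PGAM1. In GPT2sinc they were 3479 for GAPDH, 923 for ENO1, 776 for TPI1, 725 for ALDOA and 498 for PGAM1. ENO1, TPI1 and ALDOA lay close together, and their order rests on the exon lengths used. Which genes are among these 5 rests on them too. PKM, at 387 CPM per kilobase in GPT2si and 421 in GPT2sinc, has 8571 bases of exon but 3016 in its longest transcript. LDHA, at 360 in GPT2si and 461 in GPT2sinc, has 6210 bases of exon but 2416 in its longest transcript. Over these 5 genes the step from highest to lowest was larger than any difference between the groups.

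GPT2si 2 differed from GPT2si 1 and 3 in a way that went with the GC content of the members. Of 12 tested members whose longest transcript had under 50% GC, GPT2si 2 was the lowest GPT2si library in 10, and the median log2 ratio of GPT2si 2 to the mean of GPT2si 1 and 3 was −0.255. Of 21 members with 50% GC or more, it was the lowest in 7 and the highest in 12, with a median of 0.135. With offsets for GC content and transcript length 19 members fell and 3 rose (PFKFB2, TIGAR and BSG), where 4.16% of all tested genes fell and 7.47% rose. Over all genes, these offsets gave more higher than lower calls, the reverse of the fit without them.

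Next to the pathway, calls came among the other isozymes and the glycogen genes. Over all tested genes, 0.841% fell and 0.576% rose by edgeR, and 3.42% were lower and 4.47% higher by DESeq2. At an unadjusted edgeR p under 0.05, 9.27% of all tested genes were lower and 10.3% higher. Of 10 tested among 22 other isozymes and carriers, SLC2A4, an insulin-responsive glucose transporter gene, was at 4.69 CPM in GPT2si and 7.82 CPM in GPT2sinc and fell (−0.74, SE 0.14; edgeR adjusted p = 0.0468), as did LDHD, a D-lactate dehydrogenase gene, at 19.6 CPM in GPT2si and 28.0 CPM in GPT2sinc (−0.52, SE 0.10; edgeR adjusted p = 0.0493). Among 13 glycogen and hexosamine genes, 2 fell and 0 rose, namely PGM1, which links glucose 1-phosphate to glycolysis (−0.50, SE 0.08; edgeR adjusted p = 0.0275), and the glycogen phosphorylase gene PYGM (−0.50, SE 0.08; edgeR adjusted p = 0.0254). The median was −0.28 over the 13 and 12 of them were below 0. Over all tested genes the median was −0.01 and 52.0% were below 0. For pyruvate entry to mitochondria 0 of 11 passed edgeR, DESeq2 or limma-voom, and unadjusted edgeR p-values under 0.05 went to 2 lower genes and 0 higher. The most abundant were PDPR at 146 CPM in GPT2si and 159 CPM in GPT2sinc, and PDHA1 at 148 CPM in GPT2si and 143 CPM in GPT2sinc. For the pentose phosphate pathway 0 of 7 passed edgeR, DESeq2 or limma-voom, and 0 had an unadjusted edgeR p under 0.05. TKT was at 724 CPM in GPT2si and 638 CPM in GPT2sinc, and PGD at 574 CPM in GPT2si and 499.8 CPM in GPT2sinc. Of 11 genes of the glycerol phosphate and NADH shuttles 0 passed edgeR or limma-voom and 1 was higher by DESeq2, while 2 higher and 1 lower had an unadjusted edgeR p under 0.05. MDH2 was at 409.6 CPM in GPT2si and 376 CPM in GPT2sinc, and GOT2 at 291 CPM in GPT2si and 251 CPM in GPT2sinc. Of 8 regulators that respond to glucose or oxygen, 0 passed edgeR, DESeq2 or limma-voom, with 1 gene in each direction at an unadjusted edgeR p under 0.05. ARNT, the shared partner of the hypoxia-inducible factors, was at 208 CPM in GPT2si and 230.5 CPM in GPT2sinc. HIF1A, the oxygen-regulated subunit, had 93.1, 65.9 and 110.3 CPM in GPT2si against 115, 96.7 and 82.5 CPM in GPT2sinc, with overlap.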

How the data were processed

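Counts per gene were measured by RNA-seq of A2780 cells. Per the labels' protocols, poly(A) RNA was selected, fragmented, copied with strand kept by dUTP and amplified by PCR. The authors deposited raw counts, whole numbers for each Ensembl gene ID, with a column for each library. Per the submitters' processing notes, CASAVA and StringTie were used, with neither version nor role stated. No source used here names an aligner, a counting program, its strand setting or a build.

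Groups and replicate numbers came from the sample titles. The counts were tested with edgeR 4.0.16 in R 4.3.3 (quasi-likelihood F test, TMM factors, filterByExpr, group as the only term), with Benjamini-Hochberg adjustment over 17006 genes and a threshold of 0.05. SEs were derived from the F statistic. CPM were scaled by TMM factors. Isozyme shares used counts per kilobase of exon union in GENCODE 29 (GRCh38). Altogether 26 shares in 10 steps were compared by two-sided exact permutation tests, none of which can give p under 0.1 with 3 libraries a group. Alternatives were other scalings and filters, DESeq2 1.42.0, limma-voom (limma 3.58.1), a replicate block, offsets for GC content and length (loess span 0.5, 98.9% of tested genes covered), and leaving out each library. A floor of 3 counts equals 0.0590 to 0.0715 CPM. Such floors cover counting error only: the reads were amplified by PCR, carry no molecular identifiers and so are not independent molecules.

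The members and gene lists were chosen with earlier results of these data known, and every member is named. Of the other lists, genes past the test are named, or, in a list with none, the 2 most abundant. No library was a duplicate (chi-square per degree of freedom at least 8.04 between any 2). Since separate cultures are not stated, the p-values reflect only how these libraries vary, and that variation may be technical. One marker result is not reported here. The fitting script was tested on simulated data, where it recovered 41.2% of 1.5-fold changes, 84.3% of 2-fold changes and 99% of 4-fold changes. A member that did not pass may therefore still differ between the groups.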

Additional observations from a re-analysis of the deposited data

How the results depend on the processing

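In every alternative run the median log2 fold change of the members stayed below 0, from −0.32 with upper-quartile factors to −0.25 without GPT2si 3. Only upper-quartile factors moved it by more than the SD of the members' median level over the GPT2si libraries (0.0441). That SD was 0.0548 over the GPT2sinc libraries. The count of calls depended on the setting. With DESeq2 size factors 61 genes were higher and 112 lower over all tested, and 5 members fell. With no low-count filter 17 genes were higher and 27 lower, and 3 members fell. The DESeq2 Wald test gave 600 genes higher and 460 lower, with 1 member higher and 16 lower. Offsets for GC content and length gave 1257 higher and 700 lower (35.8% of the calls lower, against 59.3% in edgeR without them), with 3 members higher and 19 lower. Leaving out 1 library gave 0 to 377 genes higher and 1 to 459 lower, 0 or 1 members higher and 0 to 16 lower. With a replicate block 252 genes were higher and 306 lower, and 10 members fell, the 8 and PDK1 and PDK3. Deviations from the group means of same-numbered libraries correlated at 0.0855, 0.114 and −0.187, and those of other pairs at −0.272 to 0.247. With 3 libraries a group, these values cannot settle whether the numbers pair the libraries. Upper-quartile factors gave 9 members lower, where 75 genes were higher and 167 lower over all tested. A threshold of 1 CPM in 3 libraries gave 8, where 96 genes were higher and 153 lower. ALDOC, PFKFB4 and SLC16A3 passed in 10 of 14 alternatives each, and GPT2 in all 14. SLC2A1 passed in 8, PFKL and PGK1 in 7 each, and HK2 and PFKP in 6 each. Over the alternatives, isozyme shares moved by more than the larger group SD in 6 cases and by less in 178. Of the shares with non-overlapping groups none changed sign. The overlapping ENO2 share, higher by 0.107 percentage points, was at −0.0119 without GPT2sinc 3. From raw counts without length scaling the PDK1 share differed by −11.9 percentage points, the PDK3 share by −4.25 and the PFKFB2 share by 2.73. Causes of these changes were not tested.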
